A study of Rattus norvegicus with 3 samples.

Results

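Rat platelets loaded with lenvatinib were compared with control platelets through the RNA that each carried. The comparison covered the 1961 genes whose signal reached a floor set by negative control features. A gene was included when its log2 signal, averaged over the 3 arrays of the study, was no lower than 7.69, the level that 95% of negative control features stay under and called the floor below. That kept 1961 of the 15037 named genes. Some negative control features lie above this level too, so a gene past it is not always clear of background. The rule uses the level of a gene and not the direction of its difference. The mean includes the lenvatinib array, however, so a gene near the floor can pass because it is high there. The study measured total RNA of peripheral blood platelets of normal F344 rats, an inbred strain, on 1 array for control platelets, 1 for sorafenib-loaded and 1 for lenvatinib-loaded platelets. From each of 5 rats 3 mL of blood was drawn and divided into 1 mL volumes for the groups, platelets were taken as the supernatant of a spin at 200 g for 7 minutes, and the suspensions of the 5 rats were pooled within each group. Drug-loaded platelets were incubated with 10 µg of drug for 30 minutes at 37 °C, outside the body, and spun again to remove free drug. The labels leave unsaid whether control platelets went through the same incubation and spin, so handling and drug cannot be told apart. With 1 pooled array a group there are no replicates: every value is a single reading, no error or p-value can be given, and the number of arrays limits the precision.

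Platelets are shed by megakaryocytes, the large polyploid cells of the bone marrow, and have no nucleus. They inherit messenger RNA from the parent cell and can translate and degrade it, but they do not transcribe nuclear genes, so a transcript can be lost within platelets but is not made there. Lenvatinib is an oral inhibitor of several receptor tyrosine kinases, chiefly the receptors for vascular endothelial and fibroblast growth factors, and is used against liver cancer. The comparison asks which of the inherited transcripts read differently after loading. The arrays measure relative signal, so fewer platelets of a kind and less RNA per platelet cannot be told apart, nor can platelet RNA from that of red or white cells in the suspension.

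The platelet label was borne out by its defining genes. The chemokine gene Pf4, the podoplanin receptor gene Clec1b and the calmodulin-binding Nrgn stood at the upper limit shared by all 3 arrays (the ceiling), and Itgb3, the integrin beta-3 chain, read 19.08 in control and 19.16 with lenvatinib. Of the markers of other cells, 0 of 15 measured T cell, 0 of 13 natural killer and 0 of 17 liver genes reached the floor, whereas it was reached by 1 of 16 neutrophil, 3 of 14 monocyte, 1 of 8 B cell and 2 of 12 endothelial genes. The monocyte genes were Lyz2 (15.13 in control and 15.34 with lenvatinib), Ccr2 and F13a1, and the endothelial genes were Vwf and Kdr. F13a1 and Vwf are also on the list of granule contents used below. The summed signal of the neutrophil list, as a log2 value, was 9.23 in control and 9.08 with lenvatinib. For the monocyte list, which F13a1 dominates, it was 18.33 and 18.35. The sum of the T cell list, all of it under the floor, was 8.40 and 8.48. Red-cell RNA was strong, with the alpha-globin gene Hba-a1 at the ceiling and Hbb at 18.63 in control and 18.68 with lenvatinib. Spiked control RNAs differed by kind. In lenvatinib minus control (log2), the hybridisation controls (bioB, bioC, bioD and cre) lay from -0.12 to -0.01 and the labelling controls (dap, lys, phe and thr) from -0.78 to -0.27. Of the labelling controls, lys (4.56 in control and 3.90 with lenvatinib), phe (6.65 and 5.87) and thr (6.50 and 6.23) lay under the floor. The control dap (8.49 and 8.12) and the hybridisation controls lay above it, so kind and strength of signal go together here. The part of the labelling controls' difference in the results below was not tested.

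Most transcripts read nearly alike in lenvatinib-loaded and control platelets. Differences are log2 signal in lenvatinib-loaded platelets minus that in control, so that 1 is 2-fold and 0.58 is 1.5-fold. Of the 1961 genes, 808 were higher by any amount with lenvatinib (41.2%), 768 were lower (39.2%) and 385 had exactly the same value on both arrays (19.6%). Exact ties can depend on how the deposited values were made, which was not tested, so an equal value here is not a measure of equal RNA. The median difference was 0 and the SD over genes was 0.27, and 46.9% of genes lay within 0.1 of control. At least 2-fold higher were 8 genes (0.408%) and at least 2-fold lower were 4 (0.204%), together 0.612%. At least 1.5-fold higher were 65 genes (3.31%) and at least 1.5-fold lower were 47 (2.4%), together 5.71%. Over all 15037 named genes, low signals included, the 2-fold shares were 0.279% higher and 0.259% lower, together 0.539%, and the 1.5-fold shares were 2.66% and 2.39%, together 5.05%. The sorafenib array, set against the same control, had an SD of 0.24.

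**Figure D1:**
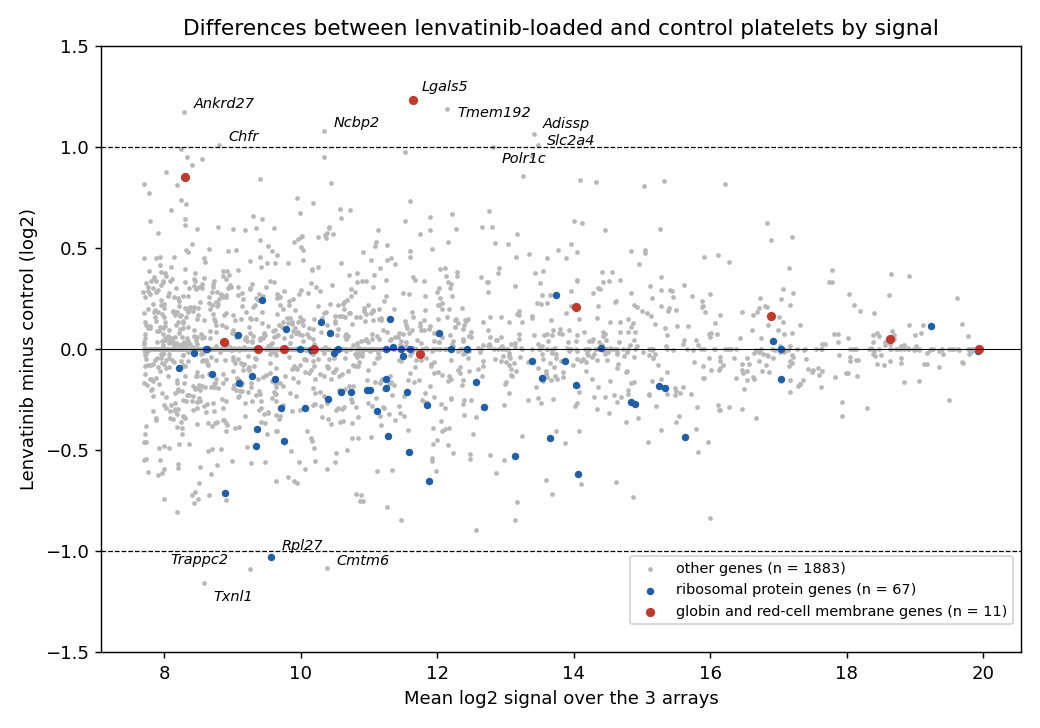
Each point is 1 of the 1961 genes, with its mean log2 signal over the 3 arrays on the horizontal axis and lenvatinib minus control (log2) on the vertical axis. Dashed lines mark 2-fold. The 12 genes at or past the lines are named. Ribosomal protein genes (blue) lie mostly under 0, and Lgals5 is the highest of the red-cell genes (red).

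Differences of 1.5-fold were found at every range of signal but the strongest. Among genes with mean signals from the floor to 9, 19 of 530 were at least 1.5-fold higher and 17 lower. From 12 to 14 the counts were 11 and 6 of 263 genes, and from 14 to 16 they were 8 and 5 of 206. Genes of strong signal stood nearer to control: from 16 to 18 there were 2 higher and 0 lower of 127 genes, and from 18 to 20 there were 0 of 117 either way. The spread of differences was narrower there, going from an SD of 0.30 at signals of 12 to 14 to 0.19 at 16 to 18 and 0.09 at 18 to 20. Exact ties enter this spread: from 18 to 20, 46 of the 117 genes were tied, against 19.6% of all genes. Their part in it was not tested. At the ceiling a difference cannot be read: 14 genes were at it on both arrays, among them Actb, Tmsb4x, Myl9 and B2m.

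**Figure D2:**
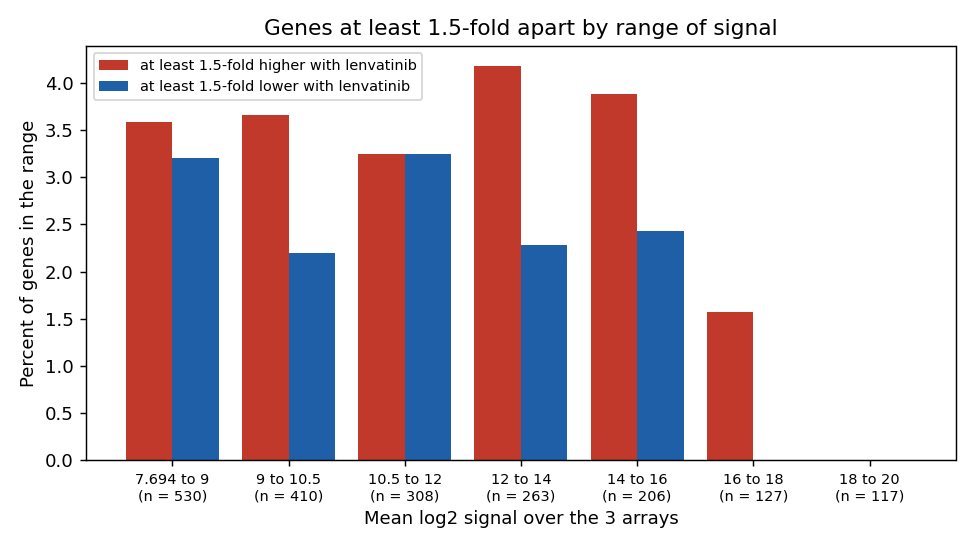
Bars give the percent of genes at least 1.5-fold higher (red) or lower (blue) with lenvatinib than in control, by range of mean log2 signal, with the number of genes in each range under the axis. No gene with a mean of 18 or more was 1.5-fold apart, and from 16 to 18 there were 2 of 127, both higher.

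The gene furthest above control was Lgals5, galectin-5, a sugar-binding protein known in rats from maturing red cells. It read 10.94 on the control, 11.82 on the sorafenib and 12.17 on the lenvatinib array, a 2.35-fold difference between lenvatinib and control. Its promoter is shown because red-cell and megakaryocyte genes share the GATA1 regulator, whose core site is AGATAA or, on the other strand, TTATCT. The 250 bases before the start of Lgals5, from RefSeq (GRCr8, chr10:64355138-64355387, minus strand), hold 1 such match in capitals, whose first base lies 130 bases before the start.
Lgals5: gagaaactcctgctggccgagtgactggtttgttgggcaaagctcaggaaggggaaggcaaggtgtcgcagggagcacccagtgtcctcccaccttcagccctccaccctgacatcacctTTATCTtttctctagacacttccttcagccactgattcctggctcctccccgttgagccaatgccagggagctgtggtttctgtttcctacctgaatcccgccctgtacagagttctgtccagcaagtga
The same letters, on either strand, occur in that window for 10.9% of the 27457 genes of the promoter table and for 6.23% of the 1654 genes above the floor that it covers, and for 2 of 10 genes of the red-cell list.

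Lgals5 belongs to a list of red-cell genes. It was singled out as the gene furthest above control and is counted in the list, so the list's counts are not independent of that choice. Of 11 globin and red-cell membrane genes at or above the floor, 7 were higher (63.6%, against 41.2% of all genes), 1 was lower and 3 were equal. The median difference was 0.04 against 0 for all 1961 genes. Among the 7, Sptb, Hbe1 and Hbb were higher by only 0.05 or less. At least 1.5-fold higher were 2 of the 11, Lgals5 and Slc4a1, the anion exchanger that anchors the red-cell skeleton, beside 3.31% of all genes. Slc4a1 read 7.93 in control platelets, 8.23 in sorafenib-loaded and 8.78 in lenvatinib-loaded platelets. The globins differed less, with Hbb-b1 at 0.21, Hbb-bs at -0.02 and Hba-a3 at 0 in lenvatinib minus control. Rhag, the Rh-associated glycoprotein of the red-cell membrane, read 16.82, 16.86 and 16.98. The signal of the 22 measured list genes was summed, leaving out Hba-a1 at the ceiling. On the log2 scale the sum was 19.06 on the control, 19.02 on the sorafenib and 19.15 on the lenvatinib array. Hbb and Rhag, the strongest genes left, dominate that sum, so it does not describe the list as a whole. Over all 22 measured genes the median difference was 0.02. A further 15 genes belong to late red-cell remodelling, which clears organelles and proteins from reticulocytes. Of these, 10 stood above control (66.7%, against 41.2% of all genes), 3 below (20%, against 39.2%) and 2 level with it. The median difference was 0.07, and over all 28 measured genes of that list it was 0.01. They went both ways at the extremes: Cat, catalase, read 11.45, 11.14 and 12.19, and Bsg, basigin, a membrane partner of lactate carriers, read 11.13, 11.14 and 10.40. Among heme and iron genes, Alas2, the first enzyme of heme synthesis in red cells, read 12.09, 12.08 and 12.25. The part of red-cell RNA in the differences of other genes was not tested.

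The other genes at least 2-fold higher, 7 in number, have unlike known roles. Tmem192, a lysosomal membrane protein, read 11.59 in control platelets, 12.06 in sorafenib-loaded and 12.77 in lenvatinib-loaded platelets, or 2.28-fold. Ankrd27, also called VARP, which binds Rab GTPases and a SNARE protein in endosomal transport, read 7.62, 8.48 and 8.79, and so started just under the floor. Ncbp2, the small subunit of the nuclear cap-binding complex, read 9.78, 10.39 and 10.86. In each of these the lenvatinib array was the highest and the control array the lowest. Slc2a4, the insulin-responsive glucose transporter GLUT4, lay 1.01 above control, with the sorafenib array at 13.40 and the lenvatinib array at 14.01. Polr1c, a subunit shared by RNA polymerases I and III, read 12.35, 12.75 and 13.35. Chfr, a ubiquitin ligase of the mitotic checkpoint, read 8.25, 8.93 and 9.26. The order of the arrays was again the same in all of them, as it was for Adissp, an adipose-secreted signalling protein, at 12.81, 13.56 and 13.88.

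Transcripts at least 2-fold lower were Txnl1, Trappc2, Cmtm6 and Rpl27. Txnl1, a thioredoxin-like protein bound to the proteasome, read 9.05 on the control, 8.81 on the sorafenib and 7.89 on the lenvatinib array, a 2.23-fold difference between lenvatinib and control. Trappc2, a subunit of the TRAPP complex that tethers vesicles at the Golgi, read 9.76, 9.35 and 8.67. Cmtm6, a membrane protein that protects the immune checkpoint ligand PD-L1 from lysosomal breakdown, read 10.94, 10.36 and 9.86. Rpl27, a protein of the large ribosomal subunit, read 10.11, 9.51 and 9.08. In all 4 the lenvatinib array was the lowest and the control array the highest, and for Txnl1 the sorafenib array lay much nearer to control than to lenvatinib.

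**Figure D3:**
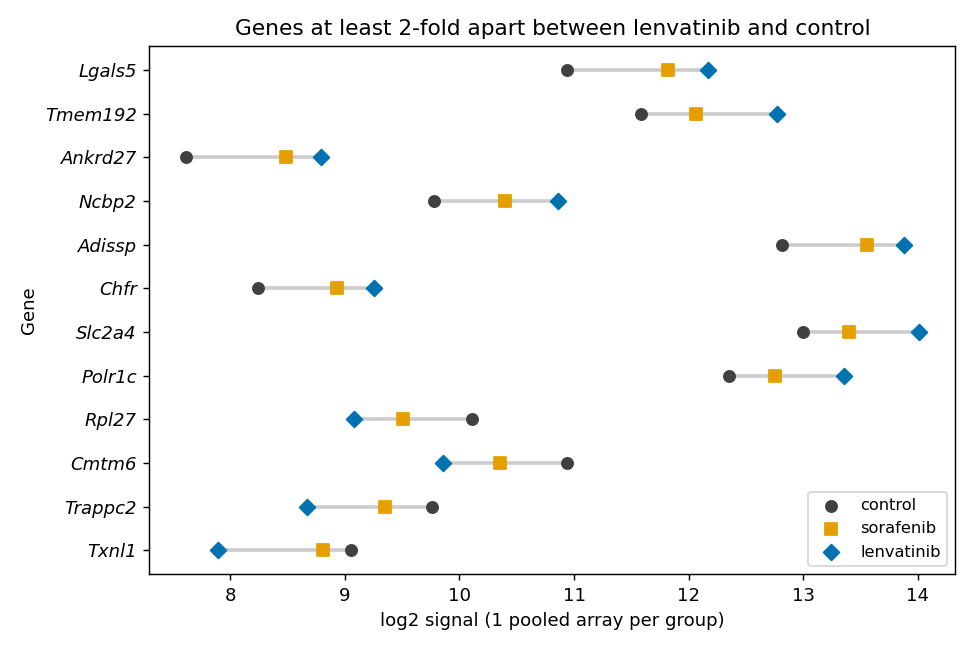
Log2 signal on the control (circle), sorafenib (square) and lenvatinib (diamond) arrays for the 12 genes at least 2-fold apart between lenvatinib and control, 1 pooled array per group and no error bars. Txnl1 goes from 9.05 in control to 7.89 with lenvatinib, and Lgals5 from 10.94 to 12.17.

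The rest of the 25 genes furthest above control differed by less than 2-fold. Cd93, a lectin-like receptor, read 9.93 in control platelets, 10.22 in sorafenib-loaded and 10.88 in lenvatinib-loaded platelets. Trem3, a receptor of myeloid cells in rodents, stood at 7.93 without drug and at 8.87 after either drug, and Ecm1, an extracellular matrix protein, read 7.60, 8.55 and 8.59. Both started near the floor. Chst12, which sulfates chondroitin, the sugar chain carried by the granule proteoglycan serglycin, read 14.92, 15.31 and 15.75. Csgalnact1, which begins the chondroitin chain, read 10.12, 10.27 and 10.94. Serglycin itself, Srgn, read 19.72 in control and 19.65 with lenvatinib. Also among the 25 highest were the corepressor Ctbp1 (0.96 above control), the transcription regulator Tsc22d4 (0.97), the palmitoyl transferase Zdhhc3 (0.95), the vesicle-priming protein Unc13b (0.88), the small GTPase Rasl10a (0.86), the mitochondrial fission protein Fis1 (0.84), the focal adhesion protein Tgfb1i1 (0.84), the Golgi ceramidase Acer2 (0.83) and the signal peptidase subunit Spcs2 (0.81). Unc13b differed from most in its order, with the sorafenib array lowest, at 7.79, 7.62 and 8.67. Spcs2 read 7.36, 7.60 and 8.17, under the floor on the control and sorafenib arrays, and was included only through its lenvatinib value.

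The rest of the 25 genes furthest below control differed by less than 2-fold. Bet1, a SNARE protein of transport from the endoplasmic reticulum to the Golgi, read 11.89 on the control, 11.47 on the sorafenib and 11.04 on the lenvatinib array. Arl6ip5, a membrane protein of the endoplasmic reticulum, read 13.58, 13.10 and 12.74, and Kdelr1, the receptor that returns escaped proteins to it, read 8.75, 8.72 and 8.01. For Kdelr1 the sorafenib array stood near the control level, and for Bet1 and Arl6ip5 it lay between the others. Gpr15lg, the ligand of the receptor GPR15, was the gene of strongest signal among the 25, at 16.33, 16.17 and 15.49. Eif5a, a translation factor that relieves stalled ribosomes, read 13.42, 13.39 and 12.67, and Slc25a5, an ADP/ATP carrier of mitochondria, read 13.94, 13.88 and 13.22. For these genes too the sorafenib array stood near control. Ociad1, a protein of mitochondria and endosomes, differed by -0.89, and the stress-response gene Oser1 differed by -0.80. The others were the serpin Serpini2 (-0.76), the proton-pump accessory Atp6ap2 and the nuclear phosphoprotein Anp32a (each -0.75), the zinc finger gene Zfp131 (-0.75), Pcmtd1 (-0.74), the PDZ protein Tax1bp3 (-0.73), the ubiquitin ligase Mib1, the scaffold Iqgap1 and the lysosomal thioesterase Ppt1 (each -0.72), and the condensin subunit Smc4 (-0.71).

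Ribosomal protein genes were mostly lower in the lenvatinib array. Of 67 genes at or above the floor, from both subunits, 45 were lower (67.2%, against 39.2% of all genes), 13 were higher and 9 equal, and the median difference was -0.15 against 0 for all 1961 genes. In the large subunit 27 of 41 were lower and 10 higher, with a median of -0.16, and in the small subunit 18 of 26 were lower and 3 higher, with a median of -0.08. Over all measured members the median was -0.18 for 44 large subunit genes and -0.02 for 29 small subunit genes. Single differences were mostly small: 4 of the 67 were at least 1.5-fold lower, against 2.4% of all genes, and 0 were 1.5-fold higher. Those 4 were Rpl27, Rpl24 (9.33 in control platelets, 8.74 in sorafenib-loaded and 8.62 in lenvatinib-loaded platelets), Rps25 (12.31, 11.66 and 11.66) and Rplp2 (14.24, 14.34 and 13.62). Rplp2, part of the ribosomal stalk, was low on the lenvatinib array alone, whereas Rps25 read the same with both drugs. A pattern like that of Rplp2 was seen in Rpl36a (11.70, 11.86 and 11.19), Rpl34 (13.76, 13.88 and 13.32) and Rpl35a (9.80, 10.11 and 9.34), each highest with sorafenib. Above control were Rpl13a (13.53, 13.89 and 13.80) and Rps10 (9.53, 9.02 and 9.77). The summed signal of the 73 measured ribosomal protein genes, which the few strongest dominate, was 21.21 in control and 21.19 with lenvatinib on the log2 scale. Most ribosomal protein genes have near-identical copies elsewhere in the genome, so that a feature can read more than 1 of them.

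**Figure D4:**
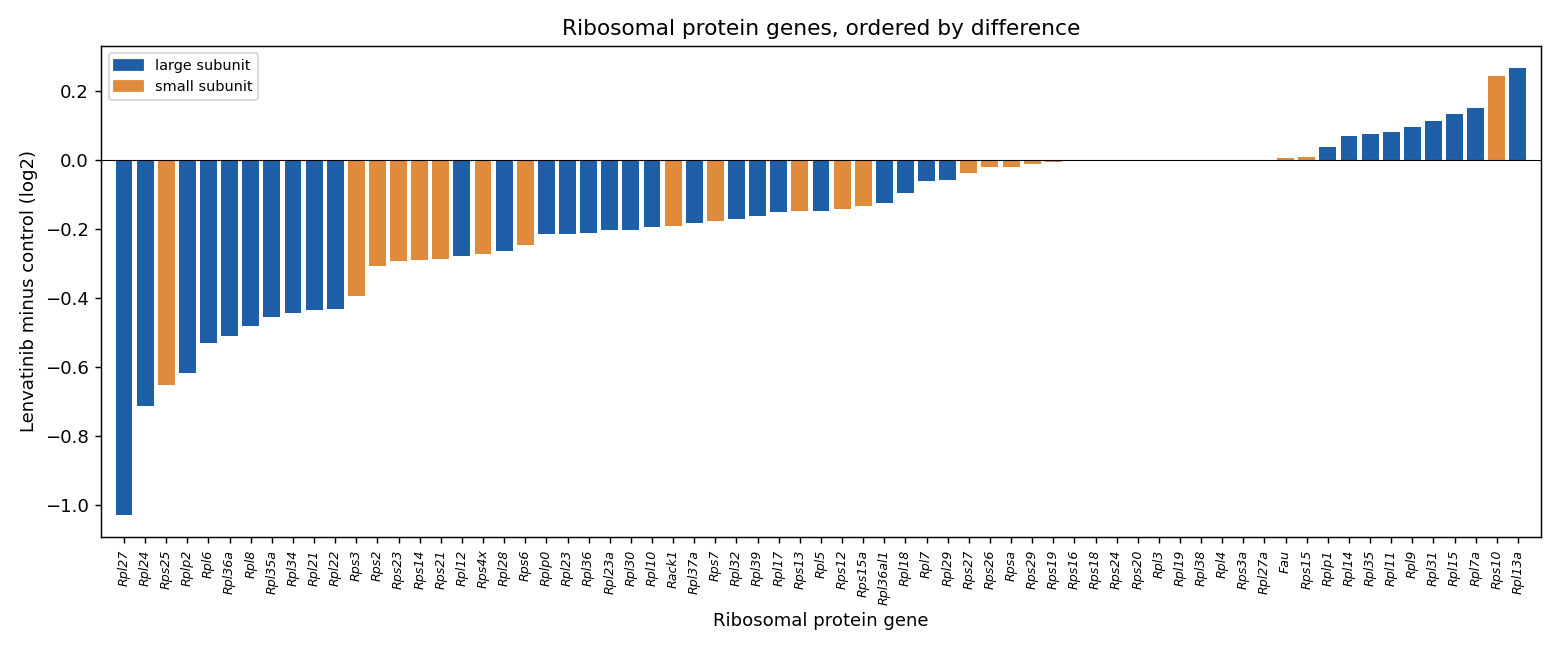
Lenvatinib minus control (log2) for each of the 67 ribosomal protein genes at or above the floor, ordered by size, with the large subunit in blue and the small in orange. Bars run from -1.03 for Rpl27 to 0.27 for Rpl13a, and 45 lie under 0.

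Ribosomal protein messages are known for a run of pyrimidines at the 5′ end, the terminal oligopyrimidine tract, through which growth signals control their translation. Shown, so that the tract can be seen, are the start sites of the 6 lowest ribosomal protein genes among those that have an entry in the promoter table and hold the tract. Rpl27, Rps25 and Rpl8 have no entry. Rpl24, Rplp2, Rpl6, Rpl36a and Rpl21, each further below control than Rpl22, are not shown because they lack the tract or an entry. The windows are thus not those of the lowest ribosomal protein genes. Capitals mark a C followed by 4 or more pyrimidines (C or T), read on the gene's own strand and beginning within 3 bases of the annotated start. Each window runs from 10 bases before the start through the first 20 bases of the transcript (RefSeq, GRCr8): chr11:81235002-81235031 on the minus strand for Rpl35a, chr2:221962264-221962293 minus for Rpl34, chr5:168117951-168117980 plus for Rpl22, chr2:23814507-23814536 plus for Rps23, chr18:56498250-56498279 plus for Rps14 and chr3:187724028-187724057 plus for Rps21.
Rpl35a: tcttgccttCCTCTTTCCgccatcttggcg
Rpl34: tccttttCCTCTTCCggggacggtgcttag
Rpl22: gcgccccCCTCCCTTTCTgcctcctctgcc
Rps23: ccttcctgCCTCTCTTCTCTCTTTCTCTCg
Rps14: ccgtctctCTCTTTCCggtggaggagtctg
Rps21: agccacttCCTTTCTgtgttctccgtagac
Of the 57 ribosomal protein genes with an entry in the promoter table, 33 had the tract (57.9%), against 13.2% of the other genes above the floor and 12.6% of all genes in the table. Ribosomal protein genes with the tract had a median difference of -0.15 and those without it -0.14. Of the 33 with it 20 were lower and 9 higher, with a mean of -0.12. Of the 24 without it 17 were lower and 3 higher, with a mean of -0.18. A part of the tract in these differences was not tested. Among other genes above the floor, the 211 with the tract and the 1386 without it both had a median of 0.

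Genes of the mitochondrial respiratory chain were also more often lower than higher in the lenvatinib array. Of 29 genes of the respiratory complexes and ATP synthase, 18 were lower (62.1%, against 39.2% of all genes), 7 were higher and 4 were equal, for a median difference of -0.06. Over all 68 measured genes of the list, those under the floor included, the median was 0. At least 1.5-fold lower were 2, against 2.4% of all genes: Atp5pd of ATP synthase (10.10 on the control, 10.17 on the sorafenib and 9.45 on the lenvatinib array) and Uqcrb of complex III (9.94, 9.70 and 9.29). Cox7a2 of cytochrome oxidase read 12.13, 12.17 and 11.68, again low on the lenvatinib array alone, while its relative Cox7a2l, which joins complexes together, was higher at 11.15, 11.41 and 11.57. Strong members such as Cox5a stood near control, at 16.94 in control and 16.89 with lenvatinib. Of 67 measured mitochondrial ribosomal proteins 2 reached the floor, Mrpl52, with a difference of -0.41, and Mrps18c, with one of -0.21.

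Splicing and RNA-binding proteins had the lowest median among the lists with 9 or more genes at or above the floor. Of 15 at or above the floor, 9 lay below control (60%, against 39.2% of all genes), 3 above and 3 level. Their median difference was -0.24, and 0 were 1.5-fold apart, against 5.71% of all genes. The median rested on the floor: it was 0 with a floor at the 90th percentile of those features or with all 57 measured genes. The lower ones were mainly heterogeneous nuclear ribonucleoproteins, which coat new transcripts: Hnrnpa2b1 read 13.15 in control platelets, 12.53 in sorafenib-loaded and 12.62 in lenvatinib-loaded platelets, Hnrnpa1 read 11.50, 11.50 and 11.14, and Hnrnpc read 11.41, 11.16 and 11.12. Sf3b6 of the U2 particle was higher at 10.76, 10.22 and 11.13. Of 10 proteasome subunits 7 were lower (70%, against 39.2% of all genes) and 3 higher, with a median of -0.08. Over all 44 measured subunits the median was 0. Psmc2, an ATPase of the proteasome cap, was lowest at 8.31, 7.91 and 7.70. Among 20 translation factors 10 were lower (50%, against 39.2% of all genes) and 7 higher, and Eif5a was the 1 member past 1.5-fold.

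Platelet signalling genes were more often higher than lower in the lenvatinib array. Of 32 genes that act below the surface receptors, 19 were higher (59.4%, against 41.2% of all genes), while 5 were lower and 8 equal. The median difference was 0.06, and over all 46 measured genes of the list it was 0.01. Of the 32 genes 0 were 1.5-fold apart, against 5.71% of all genes. Atp2a3, the calcium pump SERCA3 that refills platelet stores, read 15.92 on the control, 16.03 on the sorafenib and 16.38 on the lenvatinib array. Btk, a kinase of collagen receptor signalling, read 14.32, 14.67 and 14.71, and Lyn, a Src-family kinase, read 16.95, 16.99 and 17.25. The G protein subunit Gnaz, which couples to the adrenaline receptor, read 17.64, 17.72 and 17.97. Each was highest on the lenvatinib array, by less than 1.5-fold. Among the surface receptors the counts were nearer to even: 7 of 22 lay above control, 9 below and 6 level, and their median difference was 0. Pecam1, an adhesion protein of platelets and endothelium, read 12.57, 12.87 and 13.10, and Ptgir, the prostacyclin receptor, read 8.43, 8.05 and 8.11. P2ry12, the ADP receptor that clopidogrel blocks, read 17.90, 18.04 and 18.17.

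Of 10 megakaryocyte transcription factors, 8 lay above control, 0 below and 2 level, where 41.2% of all genes were higher and 39.2% lower. The median difference was 0.09, and over all 16 measured members it was 0.02. Their differences were small. The largest was that of Gata1, a master regulator of megakaryocytes and red cells, at 9.78 in control platelets, 9.86 in sorafenib-loaded and 10.03 in lenvatinib-loaded platelets. Runx1 read 11.65, 11.98 and 11.84, and Nfe2, which drives platelet release, read 17.78 in control and with sorafenib and 17.86 with lenvatinib. The 2 tied were Fli1 and Meis1.

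Alpha-tubulins were all above control in the lenvatinib array, while beta-tubulins lay on both sides. Tubulins form the marginal ring that holds the resting platelet in its disc shape. Tuba4a read 15.78 on the control, 16.27 on the sorafenib and 16.60 on the lenvatinib array, the largest difference (1.76-fold) among genes with a mean signal of 16 or more. Tuba1b read 14.55, 15.16 and 15.36, Tuba1a read 16.02, 16.37 and 16.45, and Tuba1c read 9.05 in control and 9.59 with each drug. Thus all 4 alpha-tubulin genes at or above the floor were above control by 0.43 to 0.82, with lenvatinib highest or level with sorafenib. The 5 beta-tubulins differed by -0.21 to 0.18: Tubb2a read 18.15, 18.26 and 18.09, Tubb5 read 13.60, 13.79 and 13.70, and Tubb4b read 9.75, 9.53 and 9.53. Alpha-tubulin genes are alike in sequence, so their features may not be independent of each other.

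The actin machinery, which reshapes the activated platelet, had members on both sides of control. Of 52 genes 23 lay below control (44.2%, against 39.2% of all genes), 15 above and 14 level, and the median difference was 0. At least 1.5-fold lower were 3, against 2.4% of all genes: Diaph1, a formin that extends actin filaments, at 11.78 in control platelets and 11.04 in sorafenib-loaded ones, with a difference of -0.78 for lenvatinib, Actr2 of the branching Arp2/3 complex at 14.97, 14.55 and 14.32, and the contractility kinase Rock2 at 11.53, 10.88 and 10.93. Furthest above control was Myl12b, a regulatory myosin light chain, with a difference of 0.48, and Gsn, gelsolin, which severs filaments, read 15.70, 15.86 and 16.16. Diaph1 and Rock2 were about as low with sorafenib, and Actr2 stood between.

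Among granule contents Tgfb1 stood furthest from control. Transforming growth factor beta-1, of which platelets are the main store in blood, read 16.52 on the control, 16.84 on the sorafenib and 17.14 on the lenvatinib array, a 1.54-fold difference between lenvatinib and control. It was the 1 granule gene of 14 at least 1.5-fold higher, against 3.31% of all genes. Of the 14, 7 were lower and 3 higher, against 39.2% and 41.2% of all genes, and of the 4 tied Pf4 and Nrgn were at the ceiling. Ppbp, the precursor of a neutrophil chemokine, read 18.78, 18.89 and 18.71, and Angpt1, angiopoietin-1, read 17.45, 17.33 and 17.29. With Tuba4a, Tgfb1 made up the genes at mean signals of 16 or more that were 1.5-fold apart. Next among strong genes came Tmem140 (16.92, 17.21 and 17.47) and Slc6a4, the transporter that takes serotonin up through the platelet's outer membrane (16.60, 16.94 and 17.14). The lowest of the strong genes was Rnasek, at 16.70, 16.93 and 16.36.

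The lists of vesicle traffic, lysosomes and secretion had members on both sides of control. Their counts stand beside 41.2% higher and 39.2% lower among all 1961 genes. Of 41 coat, tether and Rab genes 20 lay below control, 13 above and 8 level (median difference 0), and 3 were at least 1.5-fold apart, against 5.71% of all genes: Ankrd27 and Arf3 above control and Trappc2 below it. Of 26 lysosomal genes 12 were lower and 7 higher with a median of 0, with Tmem192 above and Atp6ap2 below (11.37 in control platelets, 10.73 in sorafenib-loaded and 10.62 in lenvatinib-loaded platelets). Of 10 genes of SNAREs and their regulators 4 were higher and 4 lower. The 4 higher were the regulators Stxbp2, Unc13d, Stxbp5 and Stxbp3. Bet1 was below, and Stxbp2, which guides the membrane fusion of granules, was above at 10.69, 11.45 and 11.27. Antioxidant genes also split, with Cat above and Txnl1 below control, and 8 of 17 higher and 5 lower.

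**Figure D5:**
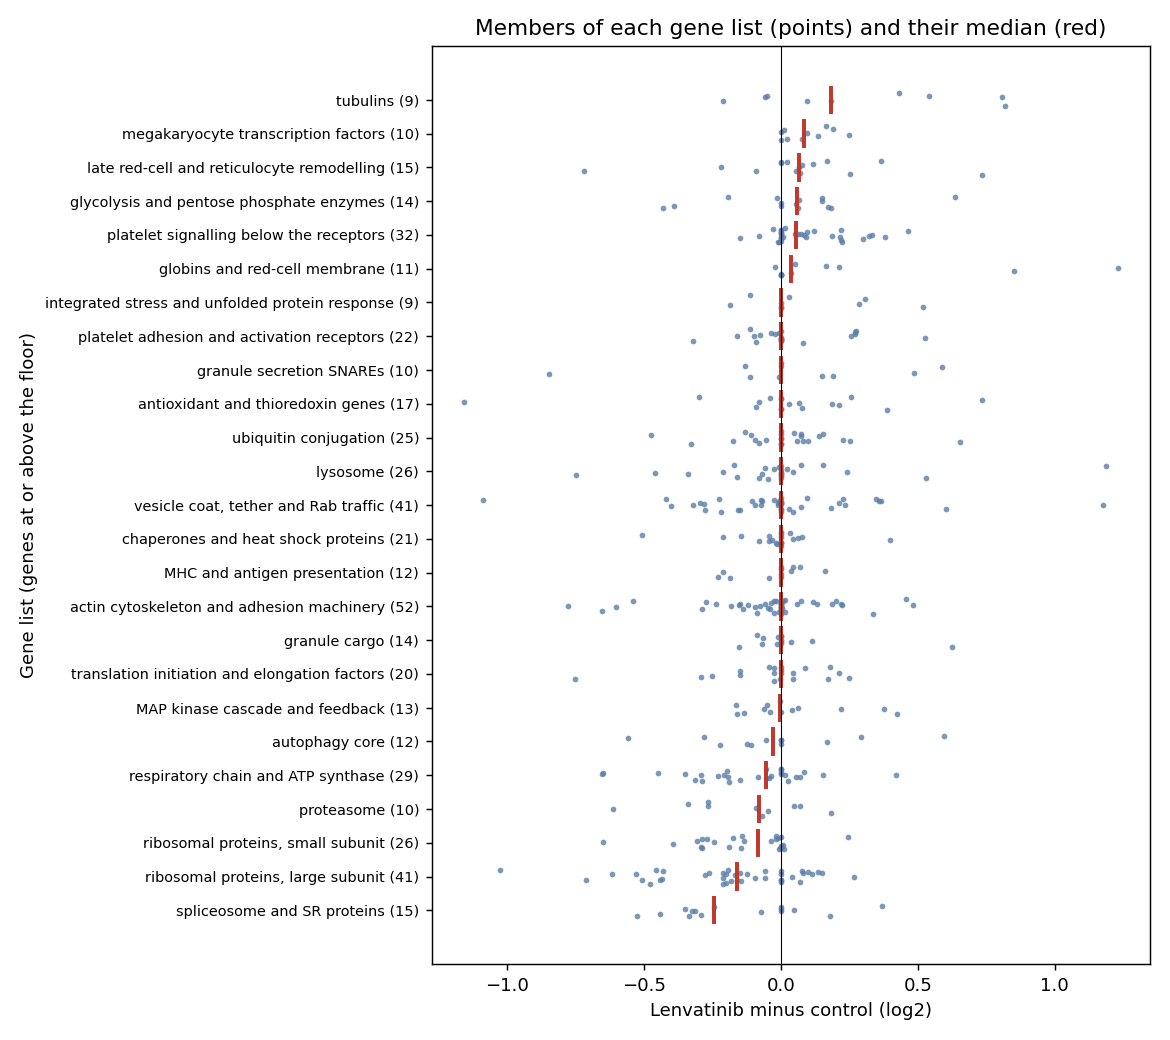
Lenvatinib minus control (log2) for the members of each gene list with 9 or more genes at or above the floor (points, jittered up and down) and their median (red bar), with the number of genes in brackets. Medians run from -0.24 for splicing proteins to 0.18 for tubulins, against 0 for all 1961 genes. With members under the floor included, the median was 0 for splicing proteins and 0.09 for tubulins.

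Few genes of prostaglandin synthesis and drug handling reached the floor. For comparison with the counts here, 41.2% of all 1961 genes were higher, 39.2% lower and 19.6% tied. Of 4 eicosanoid genes 3 were higher and 1 tied: Hpgds, which makes prostaglandin D2 in haematopoietic cells, read 7.96 on the control, 8.40 on the sorafenib and 8.87 on the lenvatinib array, and Alox12, the platelet lipoxygenase, read 17.56, 17.76 and 17.89. Of 4 transporters of the ABC family 3 were higher and 1 tied. Abcc1, an efflux pump for glutathione conjugates and drugs, read 7.89, 8.20 and 8.63, while Abcc4, which loads nucleotides into dense granules, read 11.49, 11.42 and 11.57. Of the 10 receptor kinases that lenvatinib is known to inhibit, Kdr alone reached the floor, at 8.98 on each array. Stress markers lay on both sides: of 9 genes of the integrated stress response 4 were higher, 2 lower and 3 tied, with Slc7a11, the cystine importer, at 8.25, 8.20 and 8.76, and of 21 chaperones 9 were lower, 5 higher and 7 tied.

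Genes next to the floor give a sense of its effect. Just above it lay E2f6, Cyb5r3, Txlng, Alkbh5 and Snx27, with differences from -0.46 for Alkbh5 to 0.28 for E2f6. Just below lay Slc41a3, Med15, Arhgef1, Slc35e4 and Borcs8, with differences from -0.43 for Borcs8 to 0.54 for Med15. Of the 1961 genes, 38 had a value under the floor on the control or the lenvatinib array or both, among them Ankrd27, Ecm1 and Spcs2.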

How the data were processed

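The authors deposited 1 matrix of log2 signals for the 3 arrays. Background correction, summarisation and normalization are not given in the sources used here. A second deposited table, the series value table, held the same log2 values to within 5e-05. Genes were named from the platform annotation, leaving out the 8139 of 23188 features without a single symbol, and symbols were looked up in a RefSeq table (GRCr8). A gene with several features took the one with the highest mean. Differences are lenvatinib minus control, with no test, because each group is 1 pooled array. Members, lists and comparisons were chosen with earlier results of these data known.

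The genes named were the 25 highest and 25 lowest by difference, every gene at least 2-fold apart, up to 8 of each list by size of difference together with members that define its pathway, 5 genes on each side of the floor, the 5 furthest apart in each direction at strong signals, and genes at the ceiling. Names that are only locus numbers were passed over. List sums are log2 of summed linear signals. The computations used Python 3.11.15, pandas 2.3.3 and numpy 2.4.6, with limma 3.58.1 in R 4.3.3 for the alternative normalizations, and the calculation was tested on simulated data. Alternatives were other floors, normalizations, choices of feature, thresholds and the sorafenib array as the reference.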

Additional observations from a re-analysis of the deposited data

Results flagged for a closer look

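Features without a single gene symbol were outside the comparison, and some of them differed as much as the named genes. Of 883 such features at or above the floor, 5 were at least 2-fold apart between the lenvatinib and control arrays, 3 higher and 2 lower with lenvatinib. Among the 1961 named genes 12 were (0.612%). At least 1.5-fold apart were 21 features higher and 24 lower, beside 65 and 47 of the 1961 named genes, together 5.71%. The shares were near those of the named genes, so the counts mark nothing particular to these features. What they measure was not analysed here.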

How the results depend on the processing

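Counts of genes apart depend mainly on the floor. With the floor at the 99th percentile of the negative controls (562 genes), 2 genes were at least 2-fold higher and 0 lower, 14 were at least 1.5-fold higher and 9 lower, and the SD was 0.24. At the 90th percentile (2789 genes) 106 were at least 1.5-fold higher. With no floor 42 were at least 2-fold higher and 39 lower, and 400 and 359 at least 1.5-fold. Fewer or more genes enter by construction. At a 3-fold threshold the counts were 0 and 0. Leaving out tied genes gave an SD of 0.30. Against the sorafenib array in place of control, a different question, 2 genes were at least 2-fold higher and 2 lower, 32 were at least 1.5-fold higher, and the SD was 0.23; of the 12 genes 2-fold apart from control, 0 were 2-fold and 5 were 1.5-fold apart from sorafenib. Under centring and under quantile normalization 11 of the 12 stayed 2-fold apart, and under cyclic loess all 12. Apart from medians already within 0.01 of 0, list medians changed sign in 5 cases whose cause was not tested: glycolysis (-0.022) and apoptosis (-0.081) against sorafenib, and galectins at the 99th percentile (-0.059), with no floor (-0.17) and over all measured genes (-0.17). Another 33 list medians moved by 0.1 or more with no change of sign, none of them under centring, quantile normalization or cyclic loess. Of the 25 highest and 25 lowest genes, 0 changed sign in 563 recomputed differences. Many of these could not change: another floor, or leaving out ceiling or tied genes, does not alter a gene's own difference. The genes were also chosen as the extremes of that difference, so the count of 0 is no measure of how firm they are. In all, 45 moved by 0.1 or more, all against the sorafenib array, where Trem3 and Zfp131 came to 0. Other genes named in the text were not recomputed, and several of them lie on the other side of the sorafenib array. Examples are Rock2, Stxbp2, Runx1, Hnrnpa2b1, Ptgir, Rpl13a, Tubb5 and Uba1. No paired analysis was possible because each group is 1 array with no replicate numbers.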

Other observations

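Some gene groups had few members above the floor. Beside their counts stand 41.2% higher, 39.2% lower and 19.6% tied among all 1961 genes. Of 5 interferon-stimulated genes 4 were higher and 1 lower in the lenvatinib array, and the guanosine triphosphatase Ifi47 read 9.05 in control platelets, 9.58 in sorafenib-loaded and 9.69 in lenvatinib-loaded platelets. Of 14 glycolytic and pentose phosphate genes 8 were higher and 4 lower, and the glucose transporter Slc2a3 read 11.23, 11.50 and 11.86. Of 12 autophagy genes 7 were lower and 3 higher, with the scaffold Rb1cc1 at 8.28, 8.28 and 8.88 and the cargo receptor Sqstm1 at 10.20, 10.07 and 9.64. Histone genes were mostly tied, 4 of 7.

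Of 288 pairs of genes above the floor that lie next to each other in the RefSeq order of protein-coding genes, 1 had both at least 1.5-fold apart: Cdk16, a kinase (0.68 above control), and Uba1, the main ubiquitin-activating enzyme (0.66). With 5.71% of all genes at least 1.5-fold apart, this count says nothing about neighbours.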
